A study of Mus musculus with 16 samples.

Results

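The genes described here are 8 transcription factor genes of the absorptive cells of the mouse small intestine: Hnf4a, Hnf4g, Cdx1, Cdx2, Gata4, Klf4, Klf5 and Elf3. Their chromatin was followed through the regions in which a histone mark differed between jejunal epithelial cells lacking the corepressor NCoR1 and wild-type cells. A listed region belonged to a gene when its summit lay nearest to a transcription start of that gene and within 50 kb of it, in the mm9 assembly. By this rule 17 of 23511 regions belonged to these genes. Cdx1 lies on chromosome 18 and was not analysed here, which left 7 genes.

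The study profiled 6 histone marks by ChIP-seq in intestinal epithelial cells taken from the jejunum of C57BL/6 neonates at postnatal day 12. The knockout cells (KO) came from neonates with an intestinal deletion of NCoR1, labelled DIECUN, and the wild-type cells (WT) came from neonates labelled F/FUN; the labels do not explain the suffix UN that both carry, nor name the promoter that drives the deletion. There were 12 ChIP libraries, 1 for each mark and genotype, and 4 input libraries, which were not analysed here. With 1 library in each group no difference could be set against replicate error, so no p-value is given, and each comparison describes those libraries. The authors' q values, given below as -log10 q, come from tag counts of those libraries and do not measure replicate error. The sources used here do not say whether a library held cells of 1 or of several neonates.

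HNF4A and HNF4G are closely related nuclear receptors that bind enhancers of absorptive genes and maintain enterocyte identity. CDX1 and CDX2 are homeobox factors that set intestinal identity, and GATA4 is a zinc-finger factor that keeps the mouse jejunum distinct from the ileum. KLF4 is linked to differentiated villus cells and goblet cells, KLF5 to dividing crypt cells, and ELF3 is an epithelial factor of the ETS family needed for enterocyte and goblet cell maturation in mice. NCoR1 is a corepressor that brings histone deacetylase activity to nuclear receptors. Acetylation of histone H3 at lysine 27 (H3K27ac) or lysine 9 (H3K9ac) marks active enhancers and promoters, H3K4me3 marks promoters, and H3K4me1 marks enhancers. H3K9me3 and H3K27me3 are marks of repressed chromatin.

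Acetylation at these genes was mostly listed as higher in the KO library. Of the 17 regions, 12 were higher in KO and all 12 were acetylation regions, lying at Hnf4a, Hnf4g, Gata4, Klf5 and Elf3. The other 5 were higher in WT, 3 of them H3K27ac at Klf4 and Elf3 and 2 of them H3K4me3 at Hnf4a and Gata4. Of the 15 acetylation regions here, 12 (80%) were KO-higher, beside 8008 of the 12045 acetylation regions (66.5%) that belonged to any gene, so most listed acetylation regions were KO-higher with or without these genes. Cdx2 had no region of any list. In bulk cells such as these, more cells carrying a mark and more of the mark in each cell cannot be told apart. The sequences below show the summit base and 100 bases on either side of it, on the plus strand, for 5 of the genes with regions (Hnf4a, Hnf4g, Gata4, Klf4 and Klf5), so that the places the results turn on can be seen. Each is the acetylation region with the highest fold of its gene, except at Hnf4a, where that region overlaps an untranslated region and the next one is shown. Capitals mark exact matches to 6 short motifs searched on both strands: the nuclear receptor half-site AGGTCA, the HNF4 motif CAAAGTCCA, the CDX motif TTTATNG, the GATA motif AGATAA, the KLF motif GGGTGNGG and the ETS motif CCGGAAG.
Hnf4a intron, chr2:163385943-163386143: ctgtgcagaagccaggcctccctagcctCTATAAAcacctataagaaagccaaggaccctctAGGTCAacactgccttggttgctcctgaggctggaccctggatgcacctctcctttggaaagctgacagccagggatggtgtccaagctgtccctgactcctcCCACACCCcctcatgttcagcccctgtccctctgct
Hnf4g intron, chr3:3637196-3637396: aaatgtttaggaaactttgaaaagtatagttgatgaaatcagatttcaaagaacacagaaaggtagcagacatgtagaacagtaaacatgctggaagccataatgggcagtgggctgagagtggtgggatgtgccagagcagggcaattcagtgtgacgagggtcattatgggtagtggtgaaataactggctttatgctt
Gata4 intron, chr14:63825884-63826084: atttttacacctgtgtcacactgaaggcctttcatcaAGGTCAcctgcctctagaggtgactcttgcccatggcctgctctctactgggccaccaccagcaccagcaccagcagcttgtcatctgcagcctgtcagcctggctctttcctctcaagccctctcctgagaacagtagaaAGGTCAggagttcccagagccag
Klf4 promoter, chr4:55545748-55545948: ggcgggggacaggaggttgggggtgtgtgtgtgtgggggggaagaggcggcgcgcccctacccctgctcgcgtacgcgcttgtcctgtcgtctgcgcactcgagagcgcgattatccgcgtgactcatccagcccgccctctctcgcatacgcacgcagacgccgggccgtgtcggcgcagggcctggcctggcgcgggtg
Klf5 coding exon, chr14:99701156-99701356: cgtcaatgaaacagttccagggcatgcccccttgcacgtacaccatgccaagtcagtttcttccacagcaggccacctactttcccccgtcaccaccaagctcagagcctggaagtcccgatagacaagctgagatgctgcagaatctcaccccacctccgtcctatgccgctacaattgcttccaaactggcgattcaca

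The Hnf4a window held 1 match each to the nuclear receptor half-site, the CDX motif and the KLF motif, with no overlap among them. The Gata4 window held 2 half-sites. The Hnf4g, Klf4 and Klf5 windows held none of the 6 motifs. Over windows around 16 of the 17 summits, the half-site was found in 4, the KLF motif in 2, the CDX motif in 1 (Hnf4a, KO-higher H3K27ac), and the HNF4 and ETS motifs in none. The half-site windows were KO-higher H3K27ac at Hnf4a and Gata4, where 14.3% of all windows of that list held it, and WT-higher H3K4me3 at Gata4, where 8.5% did. The KLF motif lay in a KO-higher H3K27ac window of Hnf4a (10.2% of that list) and a WT-higher H3K27ac window of Elf3 (11.9%). In the KO-higher H3K27ac list the CDX motif was found in 3.59% of windows, the ETS motif in 1.58% and the HNF4 motif in 0.183%. In the KO-higher H3K9ac list the half-site was found in 13.2% of windows. GC content was 42.3% in the Hnf4g window, below the median of 53.7% for KO-higher H3K9ac windows, and 71.6% in the Klf4 window, above the median of 59.2% for WT-higher H3K27ac windows. A match describes these letters and is not evidence of binding.

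Some windows hold repeated sequence, which bears on how well short reads can be placed. In 15 of the 17 windows, all 152 stretches of 50 bases, the read length given in the labels, occurred once in the genome. The exceptions were the window of the KO-higher H3K9ac region of Elf3, in which 89 of 152 stretches (58.6%) occurred once, and a Gata4 intron window (summit 10.2 kb upstream of a start), in which 58 of 152 (38.2%) did. In each of these the most repeated stretch occurred 9544 times. The part of repeated reads in those 2 regions was not tested.

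For every region the level in the library named as higher is the authors' pileup, the number of overlapping tags at the summit after scaling to the smaller library. The level in the other library was recovered from the authors' fold as its local background, the highest of its level at the summit and its averages over 1 kb and 10 kb, and so may exceed its level at the summit. Folds are the authors' ratio of these levels, each with 1 tag added. The regions are short, from 145 to 283 bases.

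Hnf4a (chr2:163332544-163398646, plus strand) had 4 KO-higher H3K27ac regions, all inside the gene, and 1 WT-higher H3K4me3 region. The gene has 7 annotated transcript starts, from 163332544 to 163375819, and the transcripts were not filtered by coding type. At chr2:163363263-163363481, 616 bp downstream of an internal start at 163362755, the H3K27ac level was 116.0 tags in KO, against 70.4 in WT (fold 1.64). In an intron 10.2 kb downstream of the last start, at chr2:163385941-163386121, the H3K27ac level was 57 tags in KO, against 26.8 in WT (fold 2.09). Of these 2 listed regions, the one beside the internal start had the higher level in both libraries and the intronic one the lower. Acetylation of the gene outside listed regions is not described here.

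Further downstream, an Hnf4a exon at chr2:163394542-163394824 had an H3K27ac level of 99 tags in KO, against 58.5 in WT (fold 1.68). The region with the highest fold of the gene, in the untranslated region at chr2:163397392-163397559, had an H3K27ac level of 95 tags in KO, against 40.6 in WT (fold 2.31, -log10 q 8.99). The 4 summits spanned 34.1 kb, but the regions themselves covered 851 bp. All 4 folds were below the median of 2.5 for KO-higher H3K27ac regions of all genes. The promoter region lies in the non-coding gene 0610008F07Rik as well as in Hnf4a.

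The WT-higher H3K4me3 region of Hnf4a, at chr2:163374498-163374666, lay 1.2 kb upstream of the last start and 1.69 kb downstream of the start at 163372923. Its H3K4me3 level was 55.6 tags in KO, against 94 in WT (fold 1.68, -log10 q 2.63). Hnf4a thus had regions of both directions inside the gene, with different marks at different places. Its nearest KO-higher H3K9ac region lay 881 kb away.

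Hnf4g (chr3:3508030-3659775, plus strand) had the highest folds of the 7 genes. Its 3 regions were all KO-higher acetylation and clustered around the downstream start at 3634150. In an intron 3.15 kb past that start, at chr3:3637232-3637376, the H3K9ac level was 37.9 tags in KO, against 5 in WT (fold 6.49, -log10 q 15). In an exon 4.02 kb past it, at chr3:3638102-3638271, the H3K9ac level was 14.4 tags in KO, against 1.8 in WT (fold 5.52, -log10 q 4.93). In an intron 2.84 kb before it, at chr3:3631169-3631389, the H3K27ac level was 17 tags in KO, against 3.97 in WT (fold 3.62, -log10 q 3.54).

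All 3 Hnf4g regions were low in WT, where the recovered level was 5 tags or fewer. By fold, the H3K9ac regions stood at ranks 55 and 123 among the 1883 KO-higher H3K9ac regions, and the H3K27ac region stood above 84.2% of the KO-higher H3K27ac list. By the authors' -log10 p the H3K9ac regions stood above 92.5% and 35.5% of their list, and the H3K27ac region above 15.9% of its list. For KO-higher H3K27ac regions below 50 tags the median fold was 3.3. Among the 2669 genes with KO-higher acetylation, Hnf4g had rank 60 by its highest fold (97.7% of genes were lower). On the same scale Elf3 had rank 984, Gata4 1582, Hnf4a 2028 and Klf5 2408. The upstream start of Hnf4g, at 3508030, had no region within 50 kb.

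**Figure D1:**
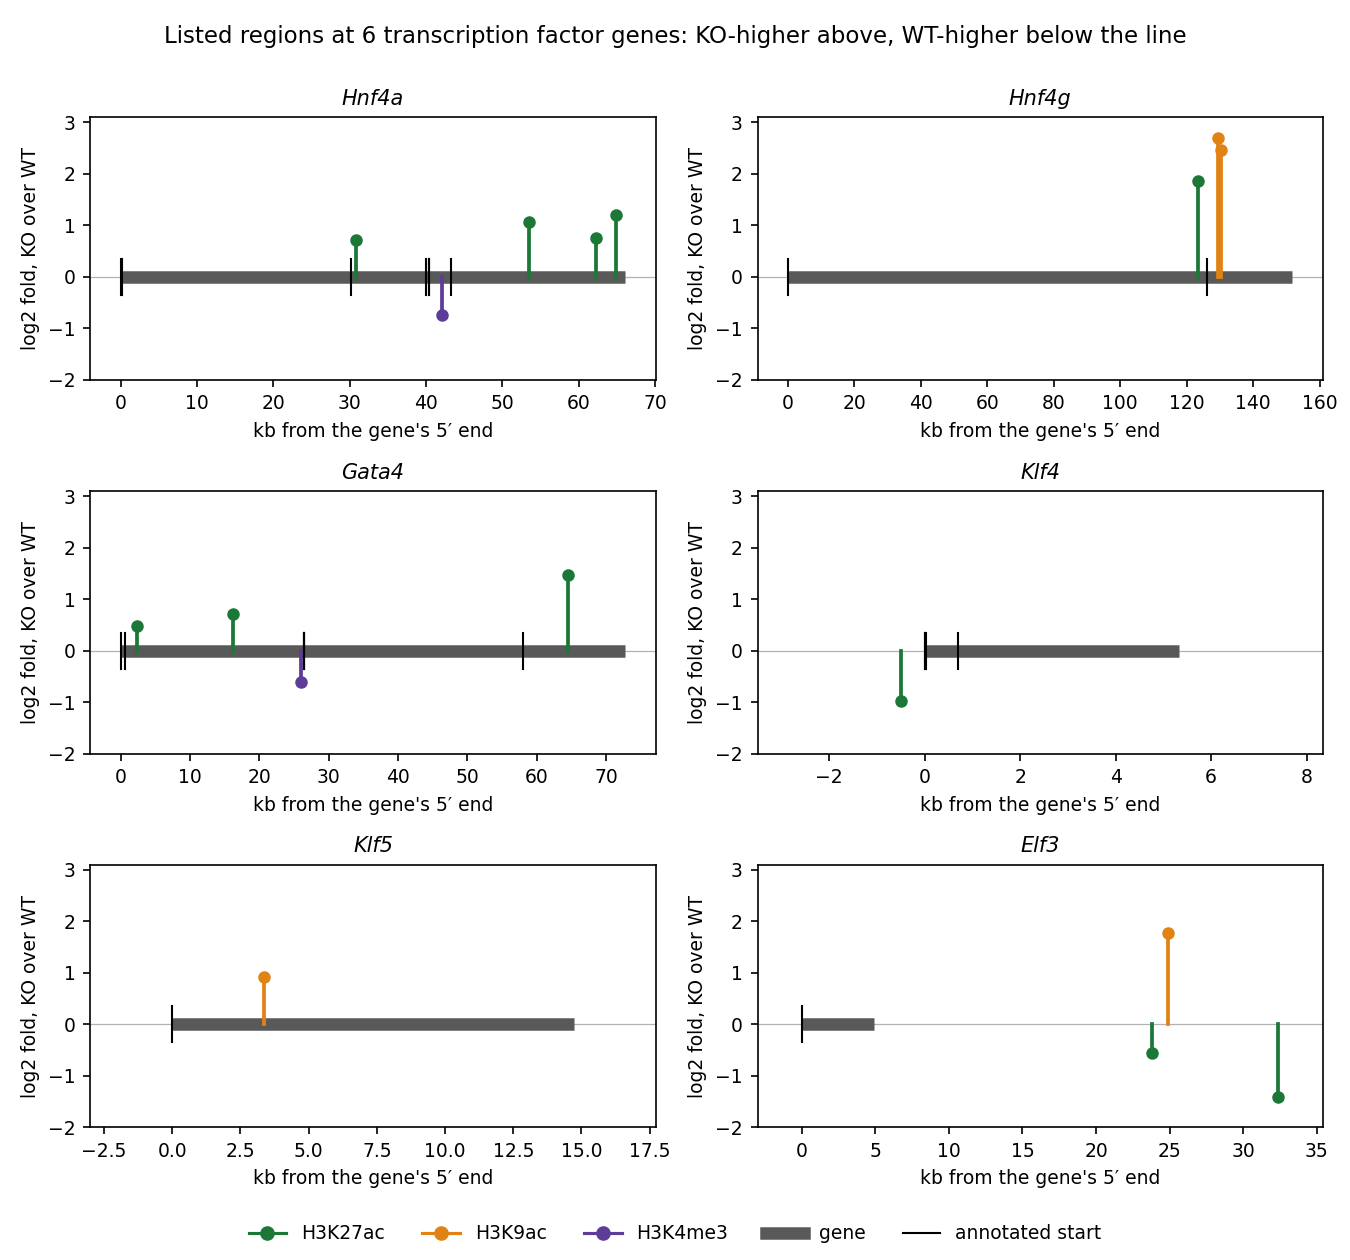
Positions of the 17 listed regions along 6 genes (x axis, kb from the 5′ end of the gene, in the direction of transcription) and their log2 fold, KO over WT (y axis). Regions higher in KO point up and those higher in WT point down, green for H3K27ac, orange for H3K9ac and purple for H3K4me3; the grey bar is the gene and the black ticks are annotated starts. Hnf4a and Gata4 show KO-higher H3K27ac along the gene, and the 2 H3K9ac regions of Hnf4g carry the highest folds, 6.49 and 5.52.

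Gata4 (chr14:63817759-63890529, minus strand) resembled Hnf4a, with 3 KO-higher H3K27ac regions and 1 WT-higher H3K4me3 region, all inside the gene. In an intron 6.46 kb past the last start, at chr14:63825904-63826071, the H3K27ac level was 70 tags in KO, against 24.8 in WT (fold 2.75, -log10 q 9.46). In an intron 10.2 kb before the start at 63864108, at chr14:63874171-63874341, it was 89 tags in KO, against 53.7 in WT (fold 1.64). In an intron 1.84 kb past the start at 63889961, at chr14:63888052-63888314, it was 175.0 tags in KO, against 125.0 in WT (fold 1.4). The fold was thus lowest where the WT level was highest, and the fold of 1.4 lay above 0.619% of the KO-higher H3K27ac list.

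The H3K4me3 region of Gata4 lay at a promoter, chr14:63864418-63864677, 392 bp upstream of the start at 63864108. Its H3K4me3 level was 63.3 tags in KO, against 97 in WT (fold 1.52). With a -log10 q of 1.53 it was the region of the 17 closest to the authors' q cutoff of 0.05. The 3 H3K27ac summits of Gata4 spanned 62.1 kb and their regions covered 602 bp. The nearest KO-higher H3K9ac region lay 81.8 kb away and belonged to Ctsb.

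Klf4 and Klf5 were listed in opposite directions, each with 1 region. At the Klf4 promoter (gene chr4:55540013-55545347, minus strand), the region chr4:55545715-55545881 lay 501 bp upstream of the start, and the H3K27ac level was 66 tags in KO, against 132.0 in WT (fold 1.98, -log10 q 7.73). In a coding exon of Klf5 (gene chr14:99697910-99712624, plus strand), the region chr14:99701166-99701328 lay 3.35 kb past the start, and the H3K9ac level was 111.1 tags in KO, against 58 in WT (fold 1.9, -log10 q 5.49). The Klf4 region stood alone among these genes as a WT-higher acetylation region at a promoter. Since the 2 regions differ in mark, they do not show that 1 mark moved oppositely at the 2 genes.

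Elf3 (chr1:137150151-137155049, minus strand) had regions of both directions, all between genes and downstream of it. In a region 24.9 kb from the start, the H3K9ac level was 45.2 tags in KO, against 12.5 in WT (fold 3.42, -log10 q 8.03). At chr1:137131183-137131342, 23.8 kb from the start, the H3K27ac level was 141.0 tags in KO, against 208.4 in WT (fold 1.47, -log10 q 3.67). At chr1:137122595-137122807, 32.4 kb from the start, it was 24 tags in KO, against 65.5 in WT (fold 2.66, -log10 q 7.42). The KO-higher H3K9ac summit thus lay 1.12 kb from a WT-higher H3K27ac summit.

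Such neighbours were rare: 3 of 1882 placed KO-higher H3K9ac regions (0.159%) had a WT-higher H3K27ac summit within 2 kb. Among all genes, 1.31% had acetylation regions of both directions, and Elf3 was the 1 such gene of the 7. Related genes had them too: Klf10 and Klf11 among paralogs of the factors, and Grhl2, Maf and Tcf7l2 among other epithelial transcription factors. The KO-higher H3K9ac region of Elf3 is the one with repeated sequence described above. When starts of non-coding genes were counted too, all 3 regions belonged to the pseudogene Gm4204, at 1.13, 2.25 and 6.37 kb. Their link to Elf3 thus rests on the nearest start of a protein-coding gene.

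**Figure D2:**
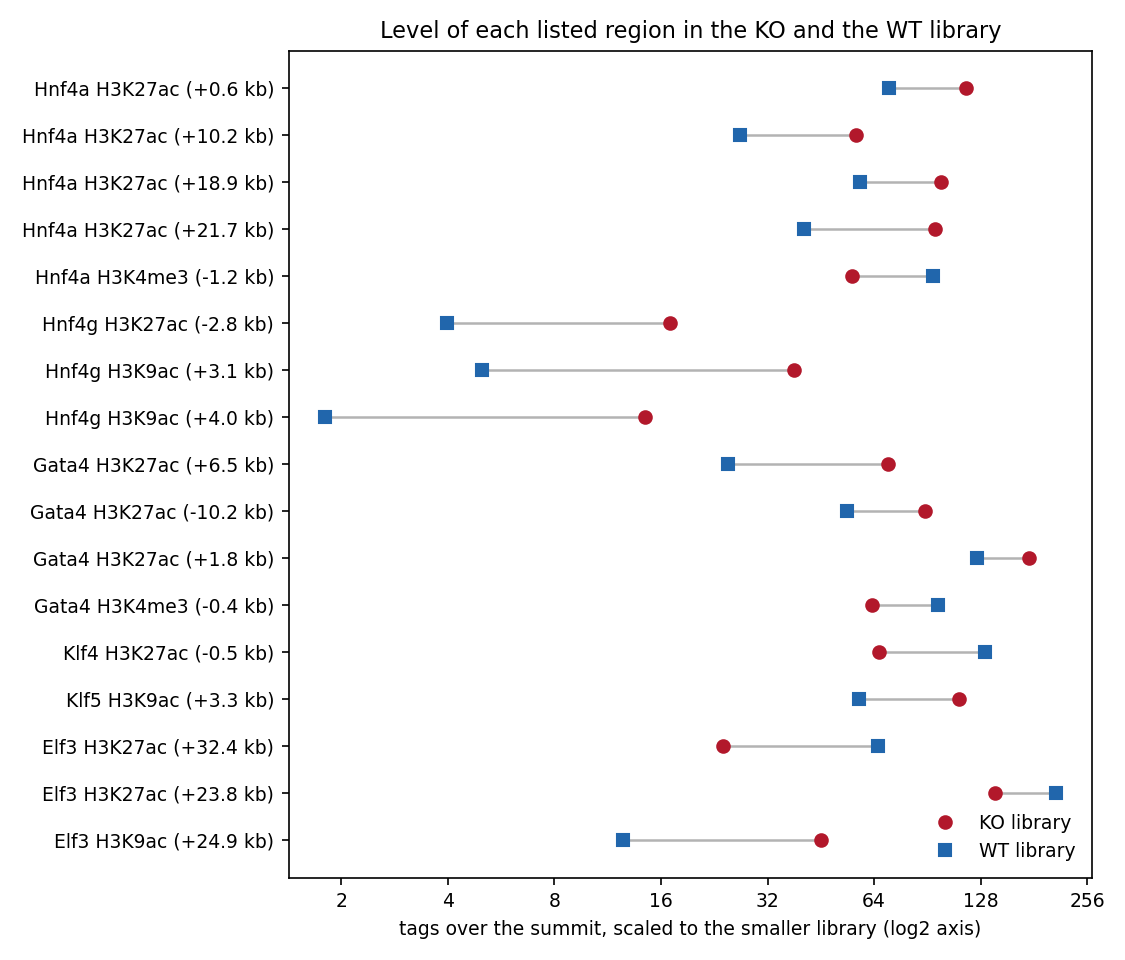
Level of each of the 17 regions in the KO library (red circles) and the WT library (blue squares), in tags over the summit scaled to the smaller library (x axis, log2 scale), with the gene, the mark and the distance from the nearest start on the y axis. The Hnf4g regions sit lowest and lie farthest apart between genotypes, with WT levels of 1.8 to 5 tags, whereas the Gata4 H3K27ac region at +1.8 kb had 175.0 tags in KO and 125.0 in WT.

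Cdx2 (chr5:148112381-148118846, minus strand) had no region in any of the 10 lists. Its nearest listed region was a KO-higher H3K27ac region 60.6 kb away that belonged to the neighbouring gene Pdx1 (fold 2.79). The nearest WT-higher H3K4me3 region lay 120 kb away, and the nearest KO-higher H3K9ac region 577 kb away. An unlisted gene may carry a mark at the same level in both libraries or a difference too small to be listed at this depth. The stretch of sequence nearer to Cdx2 than to any other start, within the limit of 50 kb, was 26.2 kb, the shortest of the 7 genes.

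Between 50 and 100 kb, 3 further regions lay nearest to these genes. The farthest region inside it was that of Elf3 at 32.4 kb. Just outside, a region 59 kb from Hnf4g had an H3K9me3 level of 28 tags in KO, against 55.6 in WT (fold 1.95). At 76.2 kb upstream of Klf4 an H3K27ac region had 69 tags in KO, against 34.7 in WT (fold 1.96), and 84.4 kb downstream of Klf5 another had 82 tags in KO, against 40.7 in WT (fold 1.99). The distant Klf4 region thus ran opposite to the region at the Klf4 promoter.

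Counts of these genes are given beside the share of all genes found by the same rule. KO-higher H3K27ac or H3K9ac lay at 5 of 7 genes, where 12.3% of the 21693 protein-coding genes had it. Those 21693 genes were not filtered by expression in intestinal cells, and the part of this in the comparisons was not tested. KO-higher H3K27ac lay at 3 of 7 (Hnf4a, Hnf4g and Gata4; 11.6% of all genes) and KO-higher H3K9ac at 3 of 7 (Hnf4g, Klf5 and Elf3; 4.02%). WT-higher H3K27ac or H3K9ac lay at 2 of 7 (12.8%), all of it H3K27ac at Klf4 and Elf3 (7.58%). WT-higher H3K4me3 lay at 2 of 7, Hnf4a and Gata4, where 15.3% of all genes had it.

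The remaining lists held none of the 7 genes: WT-higher H3K9ac (7.63% of all genes), KO-higher H3K4me3 (0.300%), WT-higher H3K4me1 (7.61%), KO-higher H3K9me3 (2.28%), WT-higher H3K9me3 (1.09%) and WT-higher H3K27me3 (0.867%). At least 1 region of any list lay at 6 of 7, against 38.6% of all genes. With 7 genes, shares near the background cannot be told from it. The stretch of sequence nearest to a start, within the limit, had a median of 100 kb for the 7 genes and 45.2 kb for all genes, and the part of this larger stretch in the counts was not tested.

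Some of these genes had several regions of 1 list. At least 2 KO-higher H3K27ac regions lay at 2 of 7 genes, Hnf4a and Gata4, where 5.85% of all genes had as many. Hnf4a had 4, a number reached by 2.28% of all genes, and Gata4 had 3, reached by 3.51%. At least 2 KO-higher H3K9ac regions lay at 1 of 7, Hnf4g, against 1.46% of all genes. The 2 Hnf4g regions lay within 1 kb of each other, and merging at that distance joined them, leaving 3 KO-higher H3K9ac regions at the 7 genes. The same merging was not done over all genes. The median fold of the 8 KO-higher H3K27ac regions was 1.88, against 2.5 for all genes, and that of the 4 KO-higher H3K9ac regions was 4.47, against 2.87. The 3 WT-higher H3K27ac regions had a median fold of 1.98, against 2.48 for all genes. In the H3K9ac pair, 56% of tags in KO and 64.3% in WT were left after duplicates were removed, the lowest shares of the 12 libraries, and the part of this in the H3K9ac regions was not tested.

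How low a fold could be and still be listed depended on the level. Among KO-higher H3K27ac regions below 50 tags the lowest listed fold was 1.73 and the median was 3.3. From 50 to 100 tags the lowest was 1.47 and the median 2.51, and at 100 tags or more the lowest was 1.29 and the median 1.96. The H3K27ac regions of Hnf4a and Gata4 had KO levels of 57 to 175.0 tags, where folds of this size can be listed, and the Hnf4g region had a KO level of 17 tags. For KO-higher H3K9ac the lowest listed folds were 1.91, 1.56 and 1.35 over the same ranges, and the medians were 3.62, 2.59 and 1.89. The H3K9ac regions of Hnf4g and Elf3 had KO levels below 50 tags, where the median was 3.62, and that of Klf5 had 111.1 tags.

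**Figure D3:**
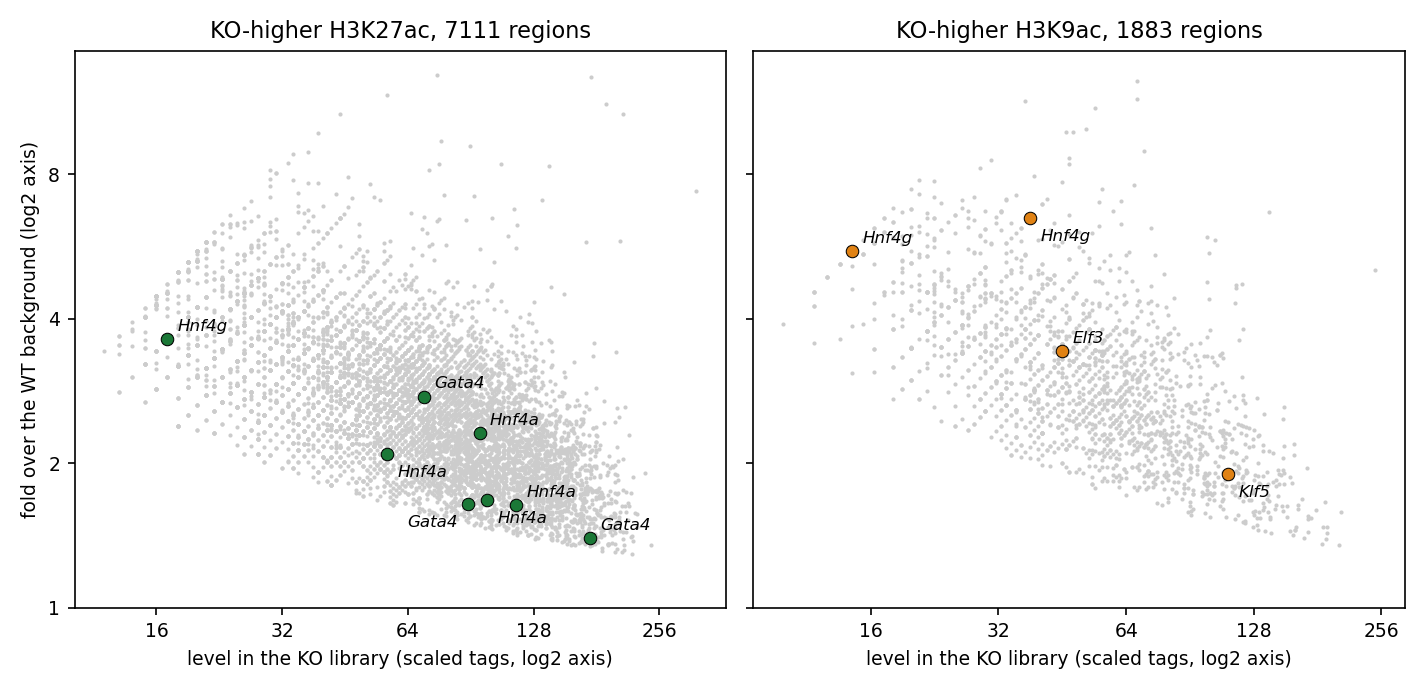
Level in the KO library at the summit (x axis, scaled tags, log2 scale) and fold over the WT background (y axis, log2 scale) of every KO-higher H3K27ac region (left, 7111 regions) and KO-higher H3K9ac region (right, 1883 regions), in grey, with the regions of the 5 named genes in colour. On the right panel the Hnf4g regions stand high and to the left (folds 6.49 and 5.52). On the left panel the Hnf4g region lies far left at a fold of 3.62, near the median of 3.3 below 50 tags. Hnf4a and Gata4 lie low and to the right on the left panel, and Klf5 lies low and to the right (fold 1.9) on the right panel.

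The overlap of the acetylation marks was also counted. None of the 4 KO-higher H3K9ac regions, 2 of them at Hnf4g, shared a base with a KO-higher H3K27ac region, beside 732 of 1882 placed KO-higher H3K9ac regions (38.9%). With 4 regions, a count of 0 cannot be told from that share. At Hnf4g the nearest KO-higher H3K27ac summit lay 5.99 and 6.86 kb away, at Elf3 50.3 kb and at Klf5 81 kb. In the whole list 1556 of 1882 regions (82.7%) had one within 10 kb. Of the 12 KO-higher acetylation regions, 11 lay inside the gene they belonged to, among them 1 at a promoter. The remaining 1, that of Elf3, lay between genes. The same count over all genes was not made.

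The pattern of regions was shared with other genes to different degrees. Counting regions per list over the 10 lists, 12 other genes had the same counts as Hnf4a, among them Fam109a, Cux2 and Dnajc13. Hnf4g had the same counts as 15 genes, among them 2010002M12Rik, Thumpd3 and Trim12a, and Gata4 as 26, among them Tmcc1, Sdr39u1 and Frmd4b. Elf3, with 2 WT-higher H3K27ac regions and 1 KO-higher H3K9ac region, had the same counts as 1 gene, Bach1. The next most like Elf3 were B3gntl1 and Lcor, with 1 region in each of those lists (distance 0.585 on the log2 scale of counts plus 1).

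Since the lists hold differences and not levels, they cannot check the labelled cell type, and regions at markers of cell types are only described. All 6 epithelial markers (Epcam, Cdh1, Vil1, Cdh17, Krt8 and Krt20) carried KO-higher regions of both acetylation marks, where 11.6% (H3K27ac) and 4.02% (H3K9ac) of all genes had them. The highest folds, 12.7 for H3K27ac and 11.5 for H3K9ac, were both at Vil1, which also had KO-higher H3K4me3 (fold 50.9) and KO-higher H3K9me3 (fold 71). Without Vil1 they were 3.56 for H3K27ac, at Krt20, and 5.46 for H3K9ac, at Cdh17. Krt20 also had a WT-higher H3K4me1 region (fold 2.75), a list that held 7.61% of all genes. Acetylation regions of either direction lay at 0 of the 3 immune markers analysed (Ptprc, Cd3e and Itgam) and at 0 of the 6 stromal markers. Among all genes, 12.3% had KO-higher and 12.8% WT-higher acetylation, so counts of 0 among so few markers cannot be told from those shares. The immune markers Spi1 and Cd74 were not analysed here. Among stromal markers, Des, an intermediate filament gene of muscle, had a WT-higher H3K4me3 region (fold 2.64). In the longer lists of the plot of gene lists, WT-higher H3K4me3 lay at 2 of 5 immune genes (Ikzf1 and Runx3) and 2 of 7 stromal genes (Des and Twist1). The share of all genes with WT-higher H3K4me3 was 15.3%. The part of the share of epithelial cells in the regions above was not tested.

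Paralogs of the 8 factors had acetylation regions of both directions. Of 26 analysed, KO-higher H3K27ac lay at 6 (Klf3, Klf6, Klf9, Klf10, Klf11 and Elf1; 11.6% of all genes) and KO-higher H3K9ac at 3 (4.02%). WT-higher H3K27ac lay at 5 (Klf7, Gata5, Ehf, Nr2f2 and Rxra; 7.58%) and WT-higher H3K9ac at 4 (7.63%). In a Klf11 intron, the H3K27ac level was 57 tags in KO, against 9.92 in WT (fold 5.31). Near Nr2f2, an orphan nuclear receptor, it was 13 tags in KO, against 36.7 in WT (fold 2.69). Klf10 and Klf11 each had a region of either direction, with folds of 2.87 and 4.52 for WT-higher H3K9ac. The Klf11 region of that list lies in the untranslated region of Grhl1.

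Many other epithelial transcription factors had KO-higher acetylation. KO-higher H3K27ac lay at 16 of 26 analysed (11.6% of all genes), with 79 regions and a median fold of 2.65, and KO-higher H3K9ac at 10 (4.02%). Ppara, the nuclear receptor for fatty acids, had 33 regions listed for H3K27ac and 13 for H3K9ac, all higher in KO, and in an intron its H3K9ac level was 33.4 tags in KO, against 3.84 in WT (fold 7.11). At the promoter of Nr1h4, which encodes the bile acid receptor FXR, the H3K9ac level was 61.4 tags in KO, against 11.2 in WT (fold 5.1). Isx, a homeobox gene that controls vitamin A uptake, had 6 regions listed for H3K27ac and 5 for H3K9ac, all higher in KO. WT-higher H3K27ac lay at 5 of these genes (7.58% of all genes), among them Nr5a2, with 14 tags in KO, against 65.5 in WT (fold 4.43).

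**Figure D4:**
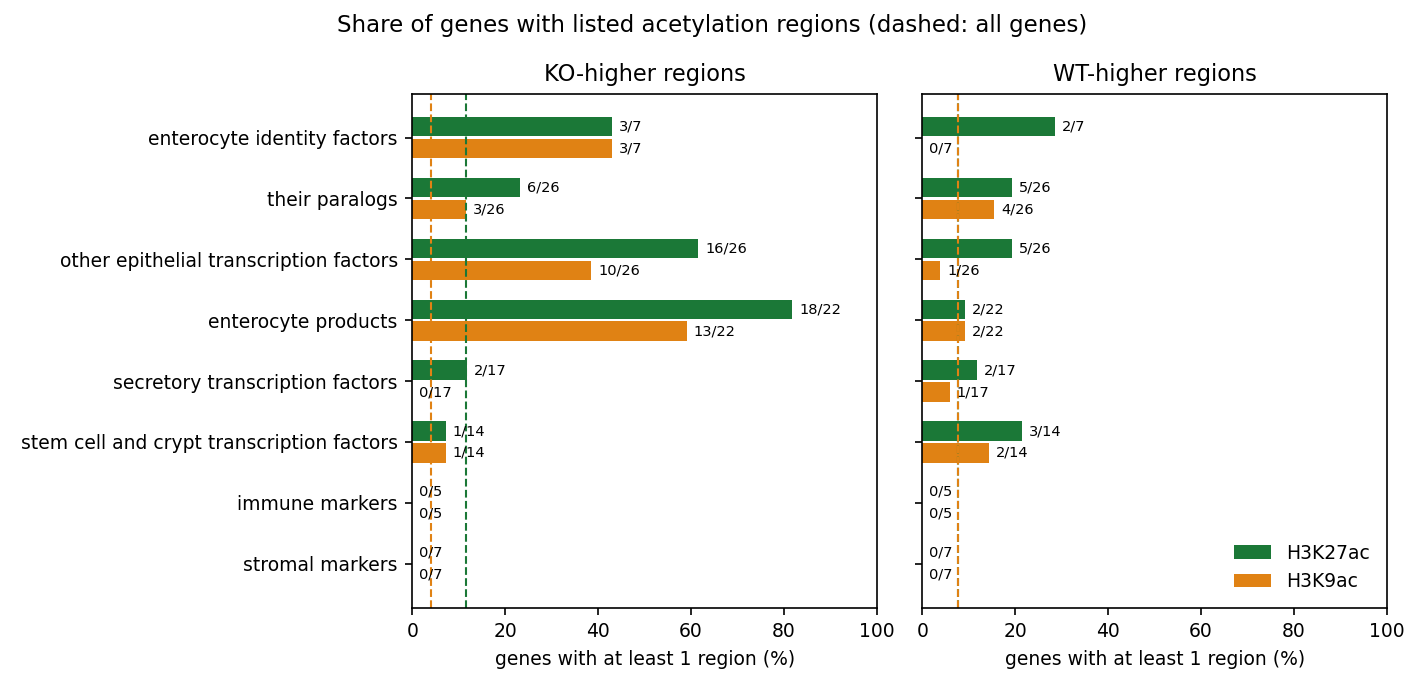
Share of genes with at least 1 listed acetylation region (x axis, percent) in the enterocyte identity factors and in 7 other gene lists (y axis), for KO-higher regions (left) and WT-higher regions (right), green for H3K27ac and orange for H3K9ac, with counts beside the bars. Dashed lines give the share of all 21693 genes, 11.6% and 4.02% for KO-higher and 7.58% and 7.63% for WT-higher H3K27ac and H3K9ac. The left bars are longest for enterocyte products (18 of 22 for H3K27ac) and are at 0 for immune and stromal markers.

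RNA could not be set beside these regions. The authors' deposited table of RNA differences covers 1549 genes, those named as nearest to H3K4me1 regions, and names 0 of the 8 factors. Its lack of a gene says nothing about that gene's RNA.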

How the data were processed

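Regions were called with MACS 2.0.10.20130419 with the other genotype's library as control, per the file headers, keeping 1 tag per position and q values up to 0.05. The submitters' processing notes name MACS2 2.1.1 and Bowtie2 2.2.9, and the headers a tag size of 75 bp beside the 50 cycles of the labels' protocols; these differences were not resolved. Per the file headers, the deposited columns give a signal (the pileup, with the larger library scaled down), a fold, which is the ratio of pileup to local background with 1 added to each, and -log10 of the p-value and q-value. Totals ran between 27946003 and 47976125 tags per library, and 23925163 to 32444815 after filtering. KO H3K4me1 and KO H3K27me3 files repeat the WT lists, so 10 of 12 deposited lists were used. For RNA, a deposited table holds a log2 fold change by the authors with an FDR (adjusted p-value); its 12 per-library columns were not used.

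Background levels were recovered from pileup and fold; the Poisson p-value made from them matched the deposited one within 0.01 on the -log10 scale for 23509 of 23511 regions. Summits were joined to the nearest start of 21693 protein-coding genes of GENCODE vM1 gene models (mm9; chromosomes 18 and Y left out), a promoter being within 1 kb of a start. Joining and recovery were tested on simulated data, and 200 of 200 planted regions were recovered by each. No test was run, since each mark had 1 library per genotype. Sequence was read from the NCBIM37 (mm9) assembly. The genes and gene lists were chosen with earlier results of these data known. All 8 factors were named; from each other list up to 4 genes per direction with the highest fold in H3K27ac or H3K9ac could be named. Isx, Tcf7l2, the Ppara region counts, Vil1, Des, Ikzf1, Runx3, Twist1 and the genes named as holding a list's regions were named after their values were seen. Of the fixed items, 1 immune marker, the sequence of 1 window and the GATA motif count over the windows are not reported here. Alternatives changed the distance limit, the -log10 q or fold minimum, the gene models, the distance measure, merging and overlap. Analyses used Python 3.11.15, numpy 2.4.6, pandas 2.3.3 and scipy 1.17.1.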

Additional observations from a re-analysis of the deposited data

How the results depend on the processing

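Counts of genes and regions were recomputed under each alternative: 42 of 52 such values stayed within 1.5 times the reported one, and 10 did not. KO-higher H3K27ac lay at 3 genes; it lay at 5 with a limit of 100 kb and at 1 with a fold of at least 3. WT-higher H3K27ac lay at 2 genes; it lay at 1 with a limit of 10 kb, at 1 with starts of all annotated genes and at 0 with a fold of at least 3. WT-higher H3K4me3 lay at 2 genes, and at 0 both with a -log10 q of at least 5 and with a fold of at least 3. The 8 KO-higher H3K27ac regions became 4 with a limit of 10 kb, 2 with a -log10 q of at least 5 and 1 with a fold of at least 3. KO-higher H3K9ac lay at 2 or 3 genes under all alternatives run. At Elf3 the balance of directions moved: its 1 KO-higher and 2 WT-higher acetylation regions became 1 and 1 with a -log10 q of at least 5, and 1 and 0 with a fold of at least 3. With a -log10 q of at least 5, KO-higher acetylation regions became 1 at Hnf4g (from 3), Hnf4a (from 4) and Gata4 (from 3). With a fold of at least 3 they remained 3 at Hnf4g and became 0 at Hnf4a and Gata4. For counts at single genes, 68 of 84 stayed within 1.5 times and 16 did not. Each stricter setting keeps fewer regions by construction. No paired analysis was possible because each mark had 1 library per genotype, and leaving out a replicate was not possible for the same reason. Depth limits what is listed: at low levels a fold under 1.73 (KO-higher H3K27ac) or 1.91 (KO-higher H3K9ac) was not listed.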

Other observations

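Genes for products of enterocytes, such as digestive enzymes, transporters and apolipoproteins, had KO-higher acetylation in most cases for H3K27ac. KO-higher H3K27ac lay at 18 of 22 analysed (11.6% of all genes), with 87 regions and a median fold of 2.78, and KO-higher H3K9ac at 13 of 22 (4.02% of all genes), with 46 regions and a median fold of 3.38. Vil1, which also had KO-higher H3K4me3 and H3K9me3, held 12 of the 87 and 10 of the 46 regions. In an intron of Cdh17, an intestinal cadherin gene, the H3K9ac level was 37 tags in KO, against 5.96 in WT (fold 5.46). Upstream of Apob, which encodes the protein core of chylomicrons, it was 22.6 tags in KO, against 3 in WT (fold 5.89). The peptidase genes Mep1a and Anpep were the 2 with WT-higher acetylation: near Mep1a the H3K27ac level was 7 tags in KO, against 28.8 in WT (fold 3.72), and in an Anpep intron the H3K9ac level was 17.2 tags in KO, against 47 in WT (fold 2.64).

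Transcription factors of secretory cells and of stem or crypt cells were analysed in the same way. Among 17 secretory factors KO-higher H3K27ac lay at 2 (Creb3l4 and Xbp1), a share of 11.8% beside 11.6% of all genes, and KO-higher H3K9ac at 0 (4.02% of all genes). WT-higher H3K27ac also lay at 2, Creb3l1 and Sox9 (7.58% of all genes), and WT-higher H3K9ac at 1, Sox9 (7.63%). Among 14 stem cell and crypt factors, KO-higher H3K27ac (11.6% of all genes) and KO-higher H3K9ac (4.02%) lay at 1 gene, Ets2. WT-higher H3K27ac lay at 3 (Cdca7, Myc and Sox4; 7.58% of all genes) and WT-higher H3K9ac at 2 (Sox4 and Tead1; 7.63%). The lists are short, and these counts were not tested against the shares of all genes. At the promoter of Myc, a driver of crypt cell growth, the H3K27ac level was 18 tags in KO, against 56.6 in WT (fold 3.03). At the promoter of Sox9, a crypt and Paneth cell factor, the H3K9ac level was 21.7 tags in KO, against 57 in WT (fold 2.56).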
